A study of Mus musculus with 6 samples.

Results

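Neurons that carried transcripts of both Ebf1 and Pou4f1 but little Pomc made up 788 of the 4876 neurons captured at E11.5, E13.5 and E15.5. A cell was a member when it had at least 1 unique molecular identifier (UMI, the tag that counts a captured transcript once) of Ebf1 and at least 1 of Pou4f1. It also had fewer than 10 Pomc UMIs per 10000 UMIs, fewer than 3 UMIs of Col3a1, Col1a1 and Col1a2 summed, and at least 1 UMI of 3 or more of 6 genes of neurons (Elavl3, Mapt, Snap25, Stmn2, Syt1 and Tubb3). A neuron here is any cell that met the last 2 of these conditions, and members were set against the other neurons of the same library. The members were thus chosen by measured values, those of Ebf1, Pou4f1, Pomc, the collagen genes and the neuronal genes. The levels of these genes and every contrast between members and other neurons are therefore given as descriptions without a test.

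The cells came from the hypothalami of mice in which DsRed, a red fluorescent protein, was expressed from Pomc regulatory sequences, and were sorted on red fluorescence before droplet sequencing. Embryos at E11.5, E13.5 and E15.5 were offspring of matings between Pomc-DsRed/+ mice on the C57BL/6 background with no treatment given in the labels, and the hypothalami of at least 6 animals were pooled into 1 library per age. The 3 other libraries of the study, E17.5, P5 and P12, held the same reporter. Papain digestion lasted 20 min at E11.5 and E13.5 and 30 min at E15.5. The sort rested on a transgenic reporter and the deposited cells all held at least 1 Pomc UMI, so the cells are those that passed both selections and not a census of the hypothalamus. With 1 pooled library per age there is no replicate: no p-value is given, age and library cannot be told apart, and each interval below covers counting error only.

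EBF1 is a transcription factor of the COE family, known from early B cells and from neurons that have just left the cell cycle. POU4F1, also called BRN3A, is a POU homeodomain factor known from sensory ganglia, the retina, the medial habenula and parts of the midbrain, where it acts in the differentiation and survival of neurons. Neither factor is part of the set best known for POMC neurons of the arcuate nucleus, which includes NKX2-1, ISL1 and PRDM12. POMC itself is the precursor of melanocortin peptides and beta-endorphin, and its gene is switched on early and only for a time in many hypothalamic neurons that later take other fates.

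Members were 248 of 1279 neurons at E11.5 (19.4%, exact binomial 95% interval 17.3 to 21.7), 466 of 1613 at E13.5 (28.9%, 26.7 to 31.2) and 74 of 1984 at E15.5 (3.73%, 2.94 to 4.66). Where 3 values follow each other below, they are for E11.5, E13.5 and E15.5 in that order. The same rule found 0 of 1133 neurons at E17.5, which allows a share of up to 0.265%, 2 of 3581 at P5 and 0 of 2210 at P12, which allows up to 0.136%. The share was therefore highest in the library of E13.5, and the intervals of the first 3 ages did not overlap. Each factor on its own was also found in fewer neurons at E15.5: an Ebf1 UMI in 741, 678 and 170 neurons at the 3 ages, and a Pou4f1 UMI in 276, 585 and 130. Among neurons with a Pou4f1 UMI, 92.8%, 83.2% and 60.8% also had Ebf1. Among neurons with an Ebf1 UMI, 34.5%, 71.8% and 46.5% also had Pou4f1. At E11.5, then, nearly all Pou4f1 cells lay inside the larger set of Ebf1 cells.

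**Figure D1:**
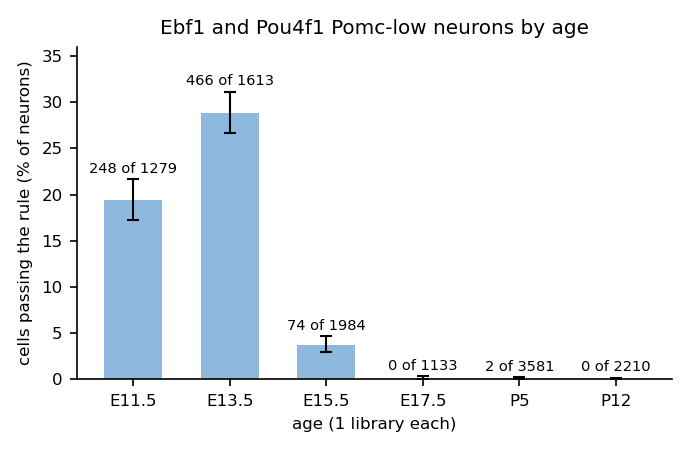
Share of neurons that met the rule at each of the 6 ages, in percent of the neurons of that library, with 1 library per age. Bars give the share, error bars the exact binomial 95% interval, and the labels the cells counted; the share was 28.9% at E13.5, 3.73% at E15.5 and at most 2 cells later.

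The 3 libraries held 27978737, 24513371 and 24458746 UMIs in 1498, 1796 and 2078 cells. The median UMI count per cell was 19275 in members and 15918 in other neurons at E11.5, 13014.5 and 12319 at E13.5, and 15267 and 10509.5 at E15.5. Members were thus deeper than the other neurons in each library, which matters for any share of cells with a UMI, and the shares for Sncg, Lhx9, Irx2 and the transmitter genes are given below also after each cell was thinned to 2000 UMIs. Between 0 and 5 cell barcodes were shared by any pair of the 6 libraries, and no barcode was shared between members of different libraries. Collagen-positive cells had at least 3 collagen UMIs and a UMI of fewer than 3 of the 6 neuronal genes. There were 109, 95 and 41 of them, with median UMI counts of 18954, 12629 and 12012. They served as a non-neuronal background, and their low content of those 6 genes was set by this choice.

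Pomc was close to its floor in the members. Of the members, 76.2%, 80.7% and 82.4% had exactly 1 Pomc UMI, the least a deposited cell could have, against 30.9%, 39.5% and 41.8% of other neurons and 88.1%, 84.2% and 85.4% of collagen-positive cells. The mean Pomc level, in UMIs per 10000 UMIs averaged over cells, was 0.87, 1.09 and 1.05 in members, 15.69, 15.25 and 13.42 in other neurons, and 0.62, 0.92 and 1.02 in collagen-positive cells. The rule capped Pomc in members but not in other neurons, so the gap between them was in part set by the choice. Of the 1031, 1147 and 1910 other neurons, 553, 699 and 1387 were below the same limit. Levels in members were near those of collagen-positive cells, so a single Pomc UMI in a member is not read here as Pomc expression. At the edge of the rule, the member with the most Pomc had 9.91, 9.34 and 7.05 UMIs per 10000, and the lowest neuron with both factors kept out for its Pomc had 11.2, 10.2 and 12.6. That limit kept out 8, 21 and 5 neurons with both factors. At the lower edge of the other limits, 1, 8 and 3 members had a single UMI each of Ebf1 and Pou4f1.

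The 7 genes that name these neurons were present in every library. Ebf1 (chr11:44617317-45008091, GRCm38, plus strand) had a mean level of 13.62, 6.81 and 4.76 in members, against 4.18, 0.73 and 0.14 in other neurons. Pou4f1 (chr14:104461676-104467999, minus strand) stood at 5.16, 6.77 and 4.76, against 0.02, 0.19 and 0.05. Both were used by the rule. Ebf1 in members was highest at E11.5 and Pou4f1 at E13.5.

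Sncg, which encodes gamma-synuclein, a small protein of axons and presynaptic endings of sensory and other projecting neurons, was among the genes that set the members furthest apart. Its level in members was 17.72, 9.79 and 5.83, from 10519, 6525 and 685 UMIs. In other neurons it was 2.81, 0.35 and 0.17, and in collagen-positive cells 0.14, 0.18 and 0. The level in members was lower at each later age and stayed above that of other neurons. Summed over cells rather than averaged, Sncg took 20.0 of every 10000 UMIs of the members (exact Poisson 95% interval 19.6 to 20.4), then 10.2 (9.93 to 10.4) and 6.31 (5.85 to 6.80). In other neurons the sums were 3.79 (3.70 to 3.88), 0.356 (0.327 to 0.387) and 0.198 (0.180 to 0.218), so counting error was small beside the difference. Cells varied widely: the lower and upper quartiles of the members were at 3.83 and 27.2 in the first library, 1.12 and 14.5 in the second and 0 and 9.88 in the third. A Sncg UMI was found in 90.7%, 84.1% and 63.5% of members, in 43.1%, 20.9% and 10.3% of other neurons and in 23.9%, 22.1% and 0% of collagen-positive cells (0 of 41, which allows up to 7.32%). After thinning to 2000 UMIs the shares were 74.6%, 59.7% and 39.2% of members and 17.46%, 5.75% and 2.51% of other neurons.

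Lhx9 and Irx2, unlike Sncg, had their lowest level in members at E11.5. Lhx9, a LIM-homeodomain factor of the developing thalamus, pretectum and other regions, had a level of 2.24, 4.67 and 3.21 in members and 0.31, 0.36 and 0.11 in other neurons. A Lhx9 UMI was present in 46.4%, 91.0% and 75.7% of members, against 9.41%, 14.8% and 4.71% of other neurons. Irx2, an Iroquois homeodomain factor, had a level of 1.52, 4.48 and 3.49 in members and 0.58, 0.24 and 0.04 in other neurons, and a UMI in 61.3%, 92.7% and 90.5% of members. After thinning, the shares of members were 23.8%, 50.4% and 33.8% for Lhx9, against 3.98%, 4.36% and 1.36% of other neurons. For Irx2 they were 22.2%, 55.2% and 51.4%, against 7.95%, 4.53% and 0.733%. In collagen-positive cells, unthinned, a Lhx9 UMI was present in 1.83%, 13.7% and 2.44%, and an Irx2 UMI in 1.83%, 8.42% and 2.44%. With and without thinning, both genes were found in a smaller share of the members at E11.5 than at the later ages. Onecut2, a CUT-homeodomain factor of early neurons, went the other way, with levels of 7.77, 1.91 and 0.81 in members and 3.19, 0.66 and 0.37 in other neurons. Its log2 ratio at E15.5 was 0.95, so against all other neurons Onecut2 was the only one of the 7 that was not at least 2-fold higher in every library. Nefm, the medium neurofilament subunit, had levels of 18.52, 2.11 and 1.29 in members and 8.03, 0.68 and 0.34 in other neurons.

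**Figure D2:**
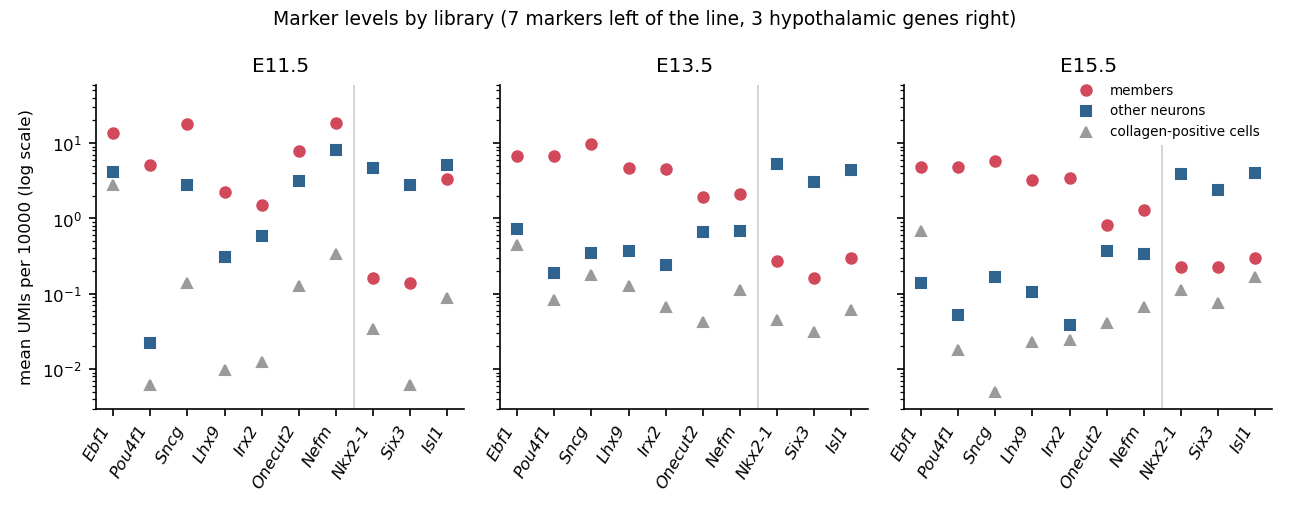
Mean level (UMIs per 10000 UMIs, log scale) of the 7 marker genes and of 3 hypothalamic genes in members (red circles), other neurons (blue squares) and collagen-positive cells (grey triangles), 1 panel per library. The 7 markers lay above the other neurons in each library, whereas Nkx2-1, Six3 and Isl1 lay below; a level of 0 (Sncg in collagen-positive cells at E15.5) is drawn at the lowest triangle.

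Neurons with only 1 of the factors were compared in the same way. At E11.5, 485 neurons (37.9%) had Ebf1 without Pou4f1, and their Sncg level of 5.64 lay below that of members. Their Lhx9 level was also low, at 0.63 against 2.24 in members. Onecut2 was closer to members, at 5.85 against 7.77, as were Nefm (13.56 against 18.52) and Irx2 (1.205 against 1.52). In that library Onecut2, Nefm and Irx2 were thus largely shared with neurons that had Ebf1 alone. At E13.5 and E15.5 neurons with Ebf1 alone numbered 191 (11.8%) and 91 (4.59%), and their Sncg level was 0.65 and 0.04. Nkx2-1, a factor of the ventral hypothalamus, stood at 1.91, 2.96 and 1.77 in these Ebf1-only neurons, which were taken at any Pomc level. Neurons with Pou4f1 alone were fewer, 20, 98 and 51, with Nkx2-1 at 5.78, 4.87 and 4.21 and Sncg at 0.31, 0.53 and 0.73. At the later ages Sncg was thus low in neurons with either factor alone, and Nkx2-1 was higher in both of these sets than in members, where it was at most 0.27.

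Over all genes, the log2 ratio of the level in members to that in other neurons was taken after 0.1 was added to both, for the 8289 genes with a mean level of at least 0.1. At least 2-fold higher in all 3 libraries were 43 genes (0.519% of those compared), and at least 2-fold lower were 37 (0.446%). Ebf1, Pou4f1 and Pomc, which the rule used, are among them. The counts and the named genes are descriptions of these members and support nothing by themselves, since the rule used the same cells. In a single library from 136 to 193 genes were at least 2-fold higher (1.64% to 2.33%) and from 90 to 143 lower (1.09% to 1.73%).

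Several transcription factor genes were among those that were higher. Zic1, a zinc-finger factor of the dorsal neural tube, was at 1.59, 5.84 and 7.09 in members and 0.12, 0.37 and 0.33 in other neurons. Zic1 was however also found in every collagen-positive cell, at levels of 7.89, 8.79 and 6.24, whose part in the members' value was not tested. Its neighbour Zic4 stood at 0.20, 1.85 and 3.20 against 0.02, 0.14 and 0.12. Zic1 and Zic4 overlap on opposite strands of chromosome 9, and whether the counting used strand is not given in the sources used here, so their reads may in part not be told apart. Tcf7l2, the Wnt effector that marks the thalamus and habenula, was at 4.15, 10.25 and 4.75 in members and 1.00, 3.32 and 1.11 in other neurons. In neurons with Ebf1 alone, taken at any Pomc level, it was at 0.76, 7.17 and 3.64. At E13.5 and E15.5 Tcf7l2 was thus in part shared with those neurons. Irx1, the neighbour and relative of Irx2, was at 0.85, 2.23 and 1.18 against 0.18, 0.19 and 0.03. Zic1, Irx1 and Lhx9 had their smallest ratio at E11.5.

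Nwd2, a gene whose product carries NACHT and WD repeats, led the genes when each was ranked by its lowest ratio over the libraries, with log2 ratios of 3.04, 3.88 and 3.95 at E11.5, E13.5 and E15.5. Its level was 1.33, 3.39 and 2.86 in members and 0.07, 0.14 and 0.09 in other neurons. Zic1, Sncg, Lhx9 and Nrn1 came next in that order, followed by Gng8 and Necab2. Necab2, a neuronal calcium-binding protein, stood at 1.78, 9.22 and 7.97 against 0.30, 0.59 and 0.66. Gng8, a G-protein gamma subunit known from olfactory neurons and the habenula, stood at 0.54, 2.98 and 3.51 against 0.03, 0.09 and 0.08. Tesc, which encodes the calcium-binding protein tescalcin, was at 0.26, 1.19 and 1.72 against 0.01, 0.04 and 0.09. Of the 7 compared genes on the list of calcium-binding proteins, only Necab2 was 2-fold higher in every library, and the median log2 ratio was -0.85. Nwd2, Necab2, Gng8 and Tesc were each lower in the members of E11.5 than in those of the 2 later libraries. In collagen-positive cells the Gng8 level was 0.12, 0.06 and 0.02.

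Further named genes that were higher had varied roles, and no gene on the lists for axon guidance (26 compared, median log2 ratio 0.23) or adhesion (20 compared, 0.02) was 2-fold higher in every library. Nrn1, which encodes neuritin, an anchored protein that promotes neurite growth, was at 2.24, 3.91 and 2.76 in members and 0.37, 0.50 and 0.15 in other neurons. Cadm1, a synaptic adhesion molecule, was at 3.72, 3.29 and 5.50 against 0.58, 0.89 and 2.07. The sialyltransferase gene St6galnac5 was at 0.94, 1.03 and 0.90 against 0.20, 0.13 and 0.13. Chst2, a sulfotransferase of glycans, was at 0.86, 2.13 and 2.01, but in collagen-positive cells at 1.10, 0.31 and 0.19. Homer2, a scaffold of postsynaptic signalling, was at 1.35, 1.02 and 0.75 against 0.45, 0.21 and 0.20. Nefl, the light neurofilament subunit, was at 26.85, 5.56 and 4.83 against 12.18, 1.92 and 1.00. Nefl and Nefm overlap on opposite strands of chromosome 14, and the same limit on strand holds for them. Of the 24 compared genes on the list of neurofilaments and axonal cytoskeleton, only Nefl and Nefm were 2-fold higher in all 3 libraries and none was 2-fold lower, with a median log2 ratio of 0.26 against 0.00 over all genes.

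Tac1, the precursor of substance P and neurokinin A, was the neuropeptide gene that stood out. It had a level of 0.32, 2.01 and 1.88 in members and 0.03, 0.35 and 0.46 in other neurons, and a UMI in 41 of 248, 240 of 466 and 35 of 74 members. Of the Tac1-positive members, 26 (63.4%), 172 (71.7%) and 26 (74.3%) also had Slc17a6. Among all members Slc17a6 was found in 159 of 248, 334 of 466 and 57 of 74. Tac1-positive members thus had Slc17a6 about as often as members in general. Of 30 neuropeptide genes listed, 8 were compared, with Tac1 the only one 2-fold higher and Pomc the only one 2-fold lower in all 3 libraries.

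**Figure D3:**
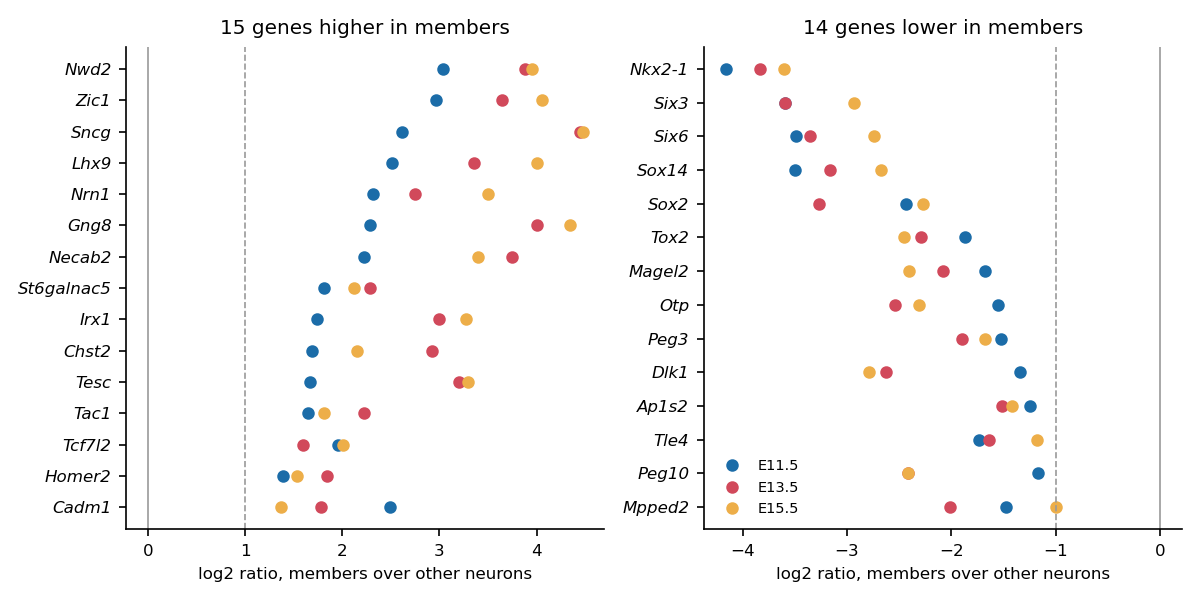
Log2 ratio of the mean level in members to that in other neurons (0.1 added to both) for the 15 genes named as higher and 14 named as lower, with 1 point per library (E11.5 blue, E13.5 red, E15.5 yellow) and dashed lines at a 2-fold difference. Genes are ordered by the library with the smallest difference, so that Nwd2, Zic1 and Sncg head the left panel and Nkx2-1, Six3 and Six6 the right.

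The genes that were lower in members were led by factors of the ventral and tuberal hypothalamus. Nkx2-1, the homeodomain factor that specifies the ventral hypothalamus, was at 0.16, 0.27 and 0.23 in members and 4.64, 5.22 and 3.92 in other neurons, with log2 ratios of -4.16, -3.84 and -3.60. Summed over cells, Nkx2-1 took 0.209 of every 10000 UMIs of the members (0.172 to 0.252), then 0.377 (0.331 to 0.428) and 0.267 (0.179 to 0.384), against 4.17, 5.94 and 3.77 in other neurons. A Nkx2-1 UMI was present in 10.1%, 10.9% and 18.9% of members, against 65.1%, 69.9% and 75.7% of other neurons and 5.50%, 6.32% and 14.6% of collagen-positive cells. The share in members was thus a few percentage points higher than in collagen-positive cells in each library. Of the 25, 51 and 14 members with a Nkx2-1 UMI, 21, 21 and 7 also had Isl1. Among all members Isl1 was found in 126 of 248, 58 of 466 and 17 of 74. Whether the Nkx2-1 UMIs of members are background was not tested. Six3, a homeodomain factor of the anterior forebrain, was at 0.14, 0.16 and 0.23 against 2.80, 3.04 and 2.42, with a UMI in 9.27%, 7.73% and 18.9% of members. Its relative Six6 was at 0.12, 0.16 and 0.26 against 2.37, 2.53 and 2.33. Sox14, a SoxB factor of hypothalamic and other relay neurons, was at 0.07, 0.11 and 0.10 against 1.87, 1.80 and 1.18. Sox2, a SoxB factor of progenitors, was at 0.09, 0.14 and 0.23 against 0.92, 2.16 and 1.49.

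Regulators of POMC neurons and of neuroendocrine neurons were low as well. Prdm12, required for Pomc expression in the arcuate nucleus, was at 0.08, 0.04 and 0.04 in members and 0.77, 0.86 and 0.55 in other neurons. Nr5a1, known from the ventromedial nucleus, was at 0.05, 0.06 and 0.06 against 0.85, 0.77 and 0.28. Otp, a homeodomain factor of neuroendocrine lineages, was at 0.18, 0.22 and 0.55 against 0.72, 1.79 and 3.14. Of the 22 genes on the list for the tuberal hypothalamus and POMC regulators, 11 were compared; 9 were 2-fold lower in every library and none was 2-fold higher. Their median log2 ratio was -2.40, and their summed level was 4.45, 1.41 and 2.35 in members and 20.37, 22.07 and 21.25 in other neurons. Most of the sum left at E11.5 was Isl1, a LIM factor of POMC neurons and also of sensory ganglia, at 3.38 in members of E11.5 and 0.30 in those of E13.5 and of E15.5. The labelled tissue was the hypothalamus, and the defining genes of its ventral and tuberal parts were low in these cells.

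Among the other named genes that were lower were Dlk1, a Notch-related membrane protein, at 1.34, 0.62 and 1.25 against 3.55, 4.36 and 9.24, and Magel2, a gene of the Prader-Willi region, at 0.23, 0.31 and 0.36 against 0.96, 1.66 and 2.36. Slc32a1, the vesicular transporter of GABA and glycine, was at 0.09, 0.03 and 0.06 against 0.34, 0.20 and 0.35. Further named genes were Tox2, Peg3, Ap1s2, Tle4, Peg10 and Mpped2, whose smallest log2 ratio in size was that of Mpped2, at -1.001.

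The promoters of Sncg, Necab2 and Tesc are shown because these genes were higher in members in each library and the letters CCCNNGGG, the core of the motif that EBF factors bind, occur in them. Sequences are from RefSeq for GRCm38.p6, run from 250 bases before to 50 bases after the start of the gene on its own strand, and are written with the match in capitals. The Sncg promoter is chr14:34374620-34374919 (minus strand, match at base 77 of the window), that of Necab2 is chr8:119446469-119446768 (plus strand, match at base 133) and that of Tesc is chr5:118027493-118027792 (plus strand, match at base 186).
Sncg: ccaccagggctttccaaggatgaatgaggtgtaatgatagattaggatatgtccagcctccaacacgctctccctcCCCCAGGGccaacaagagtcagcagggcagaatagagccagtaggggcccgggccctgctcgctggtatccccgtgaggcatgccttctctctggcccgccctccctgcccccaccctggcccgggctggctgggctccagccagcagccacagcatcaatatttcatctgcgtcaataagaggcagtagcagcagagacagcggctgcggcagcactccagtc
Necab2: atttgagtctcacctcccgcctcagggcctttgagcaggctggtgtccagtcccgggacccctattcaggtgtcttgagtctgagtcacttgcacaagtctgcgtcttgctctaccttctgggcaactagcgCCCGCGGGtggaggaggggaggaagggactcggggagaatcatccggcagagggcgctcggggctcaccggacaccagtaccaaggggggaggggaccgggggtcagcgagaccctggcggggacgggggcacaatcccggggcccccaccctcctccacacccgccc
Tesc: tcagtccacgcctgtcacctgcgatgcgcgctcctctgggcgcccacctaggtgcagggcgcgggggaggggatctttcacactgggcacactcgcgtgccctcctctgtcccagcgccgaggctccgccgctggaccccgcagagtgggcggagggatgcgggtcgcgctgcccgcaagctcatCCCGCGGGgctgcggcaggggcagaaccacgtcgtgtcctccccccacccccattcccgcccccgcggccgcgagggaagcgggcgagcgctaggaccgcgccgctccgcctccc
The motif reads the same on both strands. It was found in 10 of the 32 genes higher in members that had a RefSeq promoter (31.2%; 2510009E07Rik, Cplx2, Dmrtb1, Homer2, Mdga1, Necab2, Ptprr, Sncg, Tesc and Vav3), in 6 of 26 lower genes (23.1%), in 1371 of 6430 promoters of compared genes (21.3%) and in 4159 of all 27025 promoters (15.4%). The letters ATNATTAAT, part of the site known for POU4F1, were found in 0 of 32 and 0 of 26 promoters, and in 38 of 6430 (0.591%) and 317 of 27025 (1.17%). A match is a description of these letters, not a binding site, and the absence of a match says nothing of the factor.

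Genes that mark other regions and cell types were counted by lists. On the list for thalamus, habenula and pretectum, 10 of 12 genes were compared; 5 were 2-fold higher in every library, none was lower, and the median log2 ratio was 1.48. Its summed level was 16.18, 33.44 and 28.07 in members and 6.53, 7.79 and 5.20 in other neurons. The 5 genes called higher were Lhx9, Tcf7l2, Zic1, Zic4 and Irx1, of which Lhx9 was also among the 7 markers. At E13.5 and E15.5 Tcf7l2 was in part shared with neurons that had Ebf1 alone. Nhlh2, a bHLH factor of new neurons on the same list, was not called but was a large part of the sum, at 4.86, 7.47 and 7.66 against 3.70, 2.51 and 2.89. Gbx2, the factor that defines many thalamic relay neurons, was at 0.01, 0.01 and 0.00, and Bhlhe23, a bHLH factor, was at 0.76 at E11.5 and at most 0.03 later. The genes of the list were therefore not all present, and no cell type name is drawn from it.

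No gene of the other regional lists was 2-fold higher in every library. The list for the mammillary and supramammillary region had 8 of 12 genes compared, none 2-fold higher and 1 lower, with a median of -1.23 and Foxb1 at 0 in members. For the retinal ganglion cells, where Pou4f1 is also found, 2 of 9 genes were compared and none was 2-fold higher or lower in every library, with a median log2 ratio of 1.30. The summed level of that list was 3.12, 1.87 and 0.80 in members and 0.89, 0.31 and 0.27 in other neurons, and 2, 3 and 7 of its genes were at 0 in members. The summed level of the midbrain list was 2.70, 0.20 and 0.14 in members, and most of the value at E11.5 was Tfap2b, at 1.99 there and 0.00 in the later libraries. A UMI of any of 39 Hox genes, which mark the hindbrain and spinal cord, was found in 41 of 248 members at E11.5 (16.5%, 12.1 to 21.8), in 0 of 466 (which allows up to 0.644%) and in 0 of 74 (up to 4.05%) later. In other neurons the shares were 11.7%, 0.349% and 0% (0 of 1910, which allows up to 0.157%).

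Markers of non-neuronal cells were for the most part at like levels in members and other neurons. Haemoglobin and other erythroid genes summed to 41.96, 11.09 and 2.81 in members and 44.13, 11.33 and 2.62 in other neurons. Mesenchymal genes summed to 0.14, 0.51 and 0.20 against 0.15, 0.38 and 0.19, and microglial genes to 0.37, 0.41 and 0.16 against 0.20, 0.33 and 1.06. Endothelial genes summed to 0.09, 0.06 and 0.06 in members, and those of astrocytes and oligodendrocyte precursors to 0.09, 0.09 and 0.13. Of the 8 pituitary markers, 6, 7 and 8 were at 0 in members. Genes of radial glia and cycling cells summed to 11.38, 3.92 and 2.09 against 10.59, 6.81 and 5.29. Genes induced by dissociation summed to 1.72, 1.504 and 3.03 against 1.41, 1.90 and 6.08. The last 2 lists were lower in members at E13.5 and E15.5, and the microglial list was lower at E15.5. The part of these 3 lists in the other differences was not tested.

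At E11.5 the members were mixed in a way that those of the later ages were not. Genes of the somatosensory ganglia summed to 5.67 in members of E11.5 and 0.97 in other neurons, and to 0.80 and 1.01 in the members of E13.5 and E15.5, against 0.82 and 0.98. At E11.5, 5 of the 6 compared genes on that list were 2-fold higher, and at E13.5 and E15.5 none was. Tlx3, a homeobox gene of sensory neurons, was at 1.37 in members and 0.05 in other neurons at E11.5, and had a UMI in 40.3% of them. Isl2, a LIM factor of sensory and motor neurons, was at 1.48 against 0.10. In the members of E13.5 and E15.5 Tlx3 had from 0 to 2 UMIs, and Isl2 had none.

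A member was assigned to the list on which it had the more UMIs. This gave 163 members of E11.5 (65.7%, 59.5 to 71.6) with more on the thalamic list and 78 (31.5%, 25.7 to 37.6) with more on the ganglion list; 7 were tied, and 17 of the 248 lay within 1 UMI of a tie. At E13.5 the count was 464 against 2, and at E15.5 it was 70 against 2 with 2 tied. In other neurons the thalamic list was also the higher, with summed levels of 6.53, 7.79 and 5.20 against 0.97, 0.82 and 0.98. A neuron of any kind would thus tend to fall on the thalamic side, and no such count is given for other neurons. The thalamic counts therefore do not set members apart from them. The 2 sets had median UMI counts of 18383 and 22908.5. Their levels are given with no test, since the lists used the same cells, and the genes were chosen after their values were seen.

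Members with more on the ganglion list held most of the Isl1, at 7.47 against 1.46 in those with more on the thalamic list. They were also higher in Sncg (24.53 against 14.64), in Nefl (43.40 against 19.10) and in Nefm (31.34 against 12.63). Prph, the intermediate filament of peripheral neurons, was at 2.83 against 0.43, Sst, the somatostatin precursor, at 9.04 against 1.29, and Neurod1, a bHLH factor of differentiating neurons, at 3.44 against 0.60. Cadm1 was at 8.72 against 1.33, and Pou4f3, a relative of Pou4f1, at 0.83 against 0.08. Members with more on the thalamic list were higher in Nwd2 (1.88 against 0.30), Necab2 (2.49 against 0.46), Gng8 (0.75 against 0.16) and Crabp2, a carrier of retinoic acid (10.48 against 3.94). Nr4a2, the orphan nuclear receptor NURR1, was at 2.07 against 0.04. Ebf1 was at 12.13 in the thalamic set and 17.02 in the ganglion set, Pou4f1 at 5.63 and 4.13, Onecut2 at 8.16 and 7.02, Pomc at 0.86 and 0.79, and Nkx2-1 at 0.16 and 0.11.

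Pairs of genes were also counted in single cells. Of the 126 members of E11.5 with an Isl1 UMI, 91 also had Tlx3, which was 91.0% of the Tlx3-positive members. Isl1 and Lhx9 were found together in 25 members. Lhx9 and Zic1 were found together in 89 members of E11.5 (77.4% of those with Lhx9), in 405 of E13.5 (95.5%), and in all 56 members of E15.5 with Lhx9. Zic1 was found in 128 of all 248, 440 of 466 and 71 of 74 members. At E13.5 and E15.5 nearly every member thus had Zic1, with or without Lhx9.

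**Figure D4:**
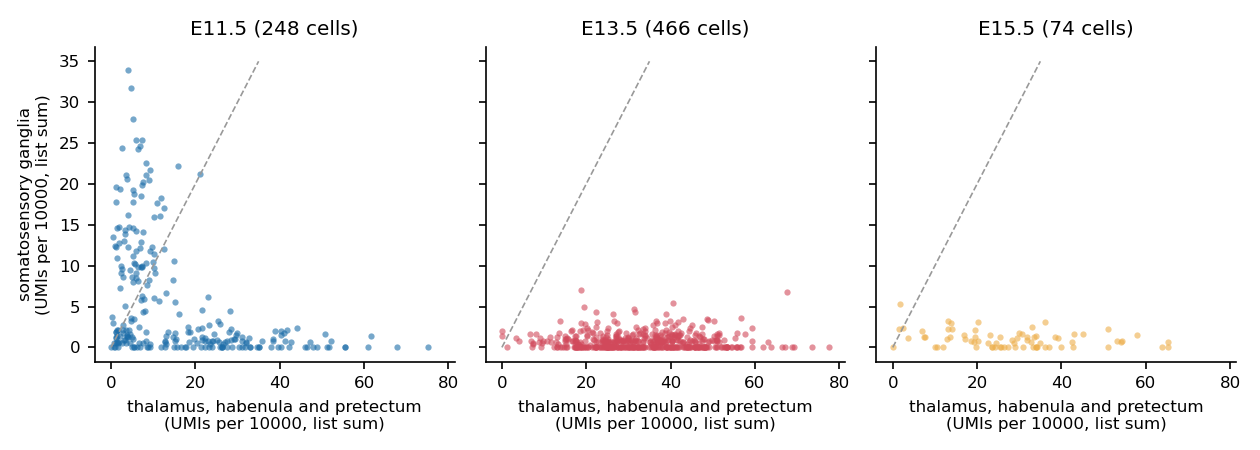
Each point is 1 member, placed by its summed level (UMIs per 10000 UMIs) on the thalamus, habenula and pretectum list (horizontal axis) and on the somatosensory ganglia list (vertical axis), with the dashed line where both are equal. At E11.5, 78 of 248 cells lie above the line and 163 below it, and at E13.5 and E15.5 nearly all lie below. The thalamic list had the higher summed level in other neurons as well, which are not drawn.

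Genes were also compared between successive ages in the members. From E11.5 to E13.5, 204 genes were at least 2-fold higher (2.46%) and 157 lower (1.89%); from E13.5 to E15.5 the counts were 53 (0.639%) and 38 (0.458%). In other neurons the same counts were 124 (1.5%) and 66 (0.796%), then 41 (0.495%) and 48 (0.579%). Which step had more genes depended on the processing: among cells with at least 2 Pomc UMIs, which left 13 members at E15.5, the first step gave 229 higher and 157 lower genes and the second 209 and 449. With each cell thinned to 5000 UMIs the first gave 222 and 173 and the second 124 and 257. These compare single libraries of different ages. Without the members that had more on the ganglion list, an alternative chosen after seeing the data, the first step gave 166 higher and 110 lower genes, which held 76% and 63.1% of the genes counted above.

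Several genes went down with age in the members. Crabp1, which binds retinoic acid in the cytoplasm, was at 43.67 in the members of E11.5 and 0.18 in those of E13.5, and at 8.45 and 0.01 in other neurons. Among the members of E11.5 its median was 4.31 and its upper quartile 48.2, so the cells differed greatly. Meis2, a TALE homeodomain factor, went from 3.37 to 0.00, and Lgals1, a galectin, from 2.15 to 0.07. Sst went from 3.69 to 0.33 in members while it went from 1.11 to 3.47 in other neurons. Isl1 went from 3.38 to 0.30, a log2 ratio of -3.11, which was -2.17 without the ganglion set, and that of Sst was -3.14 and then -1.63. From E13.5 to E15.5, Crabp2 went from 4.17 to 0.30, Onecut2 from 1.91 to 0.81, Tmeff1 from 4.68 to 1.64, and Vim, the filament of immature cells, from 2.99 to 1.10.

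Other genes went up. Pcp4, a regulator of calmodulin, went from 0.35 at E11.5 to 11.43 at E13.5 in members and from 0.17 to 0.91 in other neurons. Kitl, the ligand of the receptor KIT, went from 0.11 to 2.66 and was at 0.12 in other neurons at both ages. Cbln2, a secreted organizer of synapses, went from 0.53 to 7.80, Zcchc12 from 0.34 to 3.33 and Vstm2b from 0.20 to 1.96. For Zcchc12 the other neurons went from 0.34 to 2.69, so that gene was higher at E13.5 in both groups, whereas Vstm2b went only from 0.17 to 0.23 in them. From E13.5 to E15.5, Ptn, the growth factor pleiotrophin, went from 0.61 to 3.73, Cbln1 from 0.50 to 1.53, Hap1 from 0.92 to 2.54, Sncb, which encodes beta-synuclein, from 0.58 to 1.59, and Scg2, a granule protein, from 0.61 to 1.56.

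**Figure D5:**
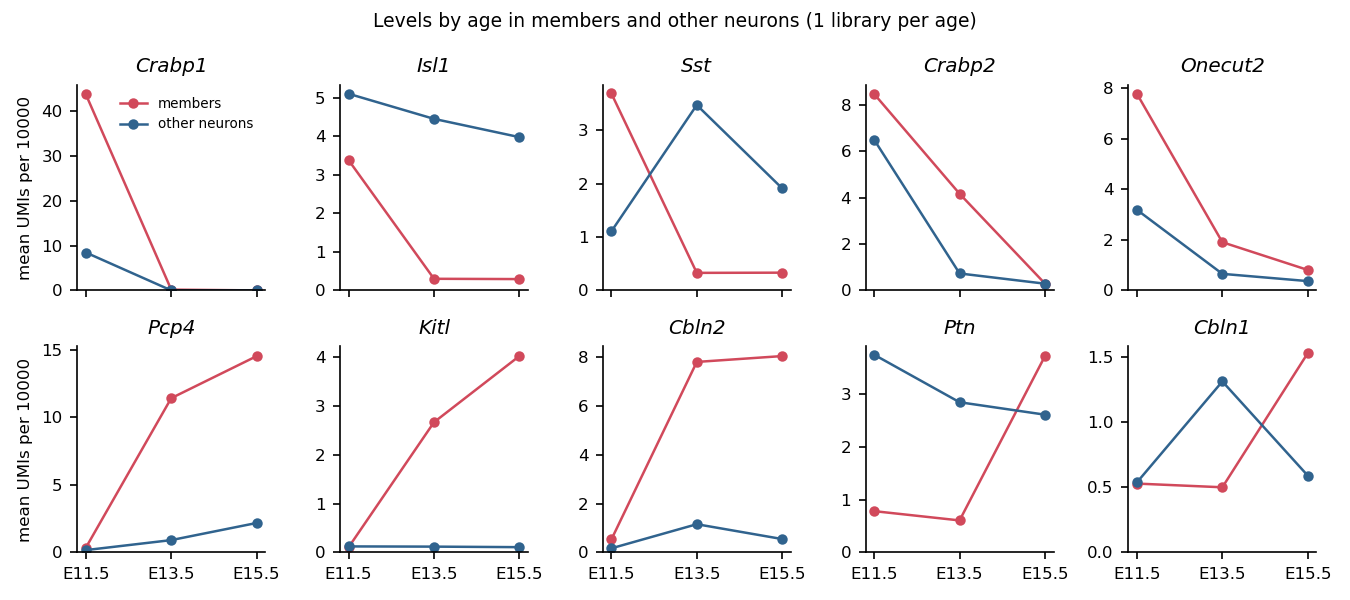
Mean level (UMIs per 10000 UMIs) of 10 genes in members (red) and other neurons (blue) at E11.5, E13.5 and E15.5, with 1 library per age and an own vertical axis for each gene. The genes of the upper row are lower in members at E13.5 and E15.5 than at E11.5, such as Crabp1 from 43.67 to 0.18, and the lower row is higher at the last age than at the first, such as Pcp4 and Kitl.

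Members of E13.5 and E15.5 also varied among themselves. A split by Zfhx3, a zinc-finger homeobox gene chosen after its values were seen, gave 395 members with and 71 without a Zfhx3 UMI at E13.5, and 58 and 16 at E15.5. Sncg was at 7.49 with and 22.62 without Zfhx3 at E13.5, and at 3.87 and 12.93 at E15.5. Nwd2 was at 3.16 and 4.67, then 2.09 and 5.66, and Lhx9 at 4.33 and 6.58, then 2.56 and 5.57. Kitl went the other way, at 2.93 and 1.17, then 4.79 and 1.23, as did Sox1, a SoxB factor, at 1.69 and 0.50, then 1.34 and 0.32. Pou2f2, a POU factor, was at 5.55 and 1.999, then 3.86 and 2.18, and the Eph receptor gene Epha5 at 1.47 and 0.54, then 1.51 and 0.40. The set without a Zfhx3 UMI was therefore the one with more Sncg and less Kitl in both libraries. Necab2 and Gng8 differed little at E13.5 (8.89 and 11.01; 2.996 and 2.90) and more at E15.5 (5.26 and 17.79; 2.44 and 7.35). The median UMI counts were 13124 and 12121 at E13.5 and 15442.5 and 12995.5 at E15.5, and the part of depth in this split was not tested.

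Members more often had a UMI of a glutamatergic than of a GABAergic gene. A UMI of Slc17a6, Slc17a7 or Slc17a8, the vesicular glutamate transporters, was found in 68.1% (62.0 to 73.9), 73.4% (69.1 to 77.4) and 79.7% (68.8 to 88.2) of members. In other neurons the shares were 25.2%, 49.1% and 29.2%, and in collagen-positive cells 3.67%, 4.21% and 7.32%. After thinning to 2000 UMIs they were 11.7%, 19.7% and 21.6% of members and 5.33%, 11.4% and 7.85% of other neurons. A UMI of Gad1, Gad2 or Slc32a1, the genes of GABA synthesis and transport, was found in 10.5% of members (6.96 to 14.98), 4.72% (2.98 to 7.06) and 6.76% (2.23 to 15.1). The shares were 26.4%, 16.2% and 33.5% of other neurons and 3.67%, 0% (0 of 95, which allows up to 3.16%) and 7.32% of collagen-positive cells. With each cell thinned to 2000 UMIs, the GABAergic shares were 3.63%, 1.93% and 0% (0 of 74, which allows up to 4.05%) of members. They were then 10.1%, 5.58% and 12.5% of other neurons and 2.75%, 0% and 2.44% of collagen-positive cells. Before thinning, the GABAergic share was higher in members than in collagen-positive cells at E11.5 and E13.5, but the intervals overlapped. At E11.5 that of collagen-positive cells was 1.01 to 9.13, from 4 of 109 cells. At E13.5 the lower limit of 2.98 in members lay below the 3.16% allowed for 0 of 95. At E15.5 the share rested on 5 of 74 members and 3 of 41 collagen-positive cells (1.54 to 19.9), too few to tell the 2 groups apart.

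Families related to the 7 markers were mixed. Of the EBF family and its partners, 5 of 6 genes were compared and only Ebf1 was 2-fold higher in all 3 libraries: Ebf2 was at 1.37, 0.17 and 0.13 in members against 0.23, 0.31 and 0.20, and Ebf3 at 1.52, 0.49 and 0.13 against 0.32, 0.50 and 0.21. Ebf2 and Ebf3 were therefore higher in members at E11.5 alone. Of the 9 POU factors compared, Pou4f1 was the only one 2-fold higher throughout, and of the 3 synucleins only Sncg was. Of the 5 Iroquois genes compared, Irx1 and Irx2 were higher, and the median was 0.29. The lists of axon guidance (26 of 38 genes compared, median 0.23) and adhesion (20 of 24, median 0.02) held no gene that was 2-fold higher or lower in every library. Robo3, the commissural axon receptor, whose level was chosen for mention after it was seen, was at 0.11, 0.31 and 0.46 in members and 0.27, 0.02 and 0.01 in other neurons. Nr4a2, likewise chosen, was at 1.37, 6.85 and 4.30 against 0.76, 1.47 and 0.90.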

How the data were processed

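Cells sorted for Pomc-DsRed were measured in 6 libraries, of which E11.5, E13.5 and E15.5 are used here. The authors deposited whole-number UMI counts per gene and cell, 27998 genes in these libraries, for cells that had passed their filters, among them at least 1 Pomc UMI. Cell Ranger 2.2.0 and 3.0.0, Seurat 3.0 and the mm10 build are named in the submitters' processing notes, and whether counting used strand is not given in the sources used here. A level is a cell's UMIs of a gene per 10000 of its UMIs, averaged over the cells of a group. Log2 ratios were taken after 0.1 was added, for genes with a mean level of at least 0.1, and a gene was called at a 2-fold ratio in each library. Named genes were the 7 markers, the 15 genes each way with the largest ratio in their lowest library (mean level at least 0.5, without genes of the rule and without mitochondrial, ribosomal and haemoglobin genes), the 5 genes each way with the largest ratio between successive ages (mean level at least 1), and called genes of 36 lists with 445 entries; others are said to be chosen after their values were seen. Results for some of the named genes are not reported here. The members and lists were chosen with earlier results of these data known. Of the list entries, Drgx was not matched and Scn2a was found as Scn2a1. Intervals are exact (Clopper-Pearson) at 95%, and the limit for a count of 0 is 3 counts. Doublets were not removed; leaving out high Scrublet scores was an alternative. No test was made, since each age is 1 library of at least 6 pooled animals. Gene positions are from GENCODE M21 for GRCm38, promoters from RefSeq for GRCm38.p6. The counting of called genes was tested on simulated data. Python 3.11.15, numpy 2.4.6, scipy 1.17.1, pandas 2.3.3, scanpy 1.11.5 and matplotlib 3.10.9 were used.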

Additional observations from a re-analysis of the deposited data

How the results depend on the processing

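Signs were checked for 33 named genes and markers and for 20 ratios between ages, not for every called gene. No alternative turned the sign of any of these, but the order of the gene counts of the 2 age steps turned in part under 2 alternatives. Of the summary values 101 stayed close and 44 moved, and of the values of single named genes 561 stayed close and 134 moved. The member share was 16.11%, 25.73% and 2.823% at E11.5, E13.5 and E15.5 with at least 2 UMIs of each factor, 15.03%, 24.78% and 2.474% when each cell was thinned to 5000 UMIs before the rule (0, 32 and 70 shallower cells left out), and 7.652%, 11.48% and 1.157% among cells with at least 2 Pomc UMIs, which left 59, 90 and 13 members. With the ganglion set left out, chosen after seeing the data, the share at E11.5 was 14.15%. The genes called higher and lower in all libraries, 43 and 37, numbered 83 and 71 with 0.02 added to the levels, and 15 and 10 with 0.5 added, where 9 of the 15 named genes stayed called each way. Against neurons with no Ebf1 or Pou4f1 UMI 65 were higher. Against other neurons with Pomc below 10 per 10000, 30 were higher (29 shared) and 27 lower (22 shared). Of the 15 named genes each way, Homer2, Ap1s2, Tle4, Peg10 and Mpped2 were then not called. The markers Ebf1, Irx2, Nefm and Onecut2 were also less than 2-fold higher at E11.5 in that contrast, and Onecut2 at E15.5 as well. Leaving out 1 library gave 48 to 128 higher and 42 to 69 lower genes: 128 and 69 without E11.5, and 59 lower without E15.5, since fewer libraries had to pass. Between E11.5 and E13.5, 352 genes were higher with 0.02 added, and 56 higher and 55 lower with 0.5 added. With no limit on the mean level, 225 and 230 were called in place of 204 and 157. Between E13.5 and E15.5 the counts were 152 and 167 with 0.02 added, 8 and 7 with 0.5 added, 124 and 257 with thinning to 5000 UMIs, and 209 and 449 with at least 2 Pomc UMIs, where E15.5 had 13 members; the first step then gave 222 and 173, and 229 and 157, so the second had more lower genes under both and more genes in all under the latter. The glutamatergic share was 26.94%, 39.59% and 44.68% with thinning to 5000 UMIs and 11.69%, 19.74% and 21.62% with members thinned to 2000, since fewer UMIs were left to find. The GABAergic share was 3.627%, 1.523% and 0% and then 3.629%, 1.931% and 0%; with at least 2 Pomc UMIs it was 15.25% at E11.5 and 0% at E15.5, and 2.975% at E13.5 without the highest 5% of doublet scores, which left 437 members there; the cause was not tested. No paired analysis was possible because each age is 1 library.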

Other observations

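Genes of secretion and synapses were at similar levels in members and in other neurons. On the list of dense-core granule proteins and peptide processing 10 of 11 genes were compared and none was 2-fold higher or lower in all 3 libraries, with a median log2 ratio of -0.04. Pcsk2, a convertase acting on peptide precursors such as POMC, was nevertheless at 0.72, 1.502 and 1.08 in members and 0.17, 0.53 and 0.54 in other neurons at E11.5, E13.5 and E15.5 (chosen after its values were seen). The 18 synaptic genes compared had a median of 0.16 with none called, although Syt4, a synaptotagmin of secretory granules, was at 1.16, 0.75 and 1.78 against 2.19, 3.86 and 3.15. Among 14 channel genes compared Cacna1e, the R-type calcium channel, was the only one called, at 0.19, 0.58 and 0.96 against 0.04, 0.21 and 0.35. Among 7 calcium-binding proteins compared only Necab2 was called, and the median was -0.85.

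Factors of neuronal differentiation showed no shared shift. Of the neurogenic factors, 13 of 27 were compared, none was called and the median was 0.10. Neurod1 was at 1.51, 0.25 and 0.48 in members and 0.29, 0.16 and 0.19 in other neurons, while Sox11, a SoxC factor of new neurons, was at 19.20, 14.85 and 14.05 against 20.20, 20.35 and 14.56. Of the LIM factors and cofactors, 13 of 18 were compared, with Lhx9 called higher and Lhx5 lower and a median of -0.23. Of the 6 compared genes of neurotrophin and GDNF signalling none was called in all libraries, but 4 were 2-fold higher at E11.5 and none later; the summed level of the list was 4.28, 1.25 and 1.42 in members and 1.82, 1.28 and 1.56 in other neurons. Ngfr, the p75 neurotrophin receptor, was at 0.99, 0.05 and 0.01 in members against 0.23, 0.04 and 0.01. Crabp2, which binds retinoic acid, was at 8.46, 4.17 and 0.30 against 6.49, 0.73 and 0.29.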
